A study of Mus musculus with 36 samples.

Results

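The comparison set wounds of the PD arm at day 4 after injury (6 libraries) against wounds of the same arm at day 2 (5 libraries), across all genes. These 11 libraries are part of 36 from mouse skin, and they were chosen by their labelled arm and day. The arms are named P and PD in the labels, which do not expand the letters. They give no genotype, strain, sex, age or agent for either arm, and they do not say whether replicates came from separate animals, so p-values measure only the spread between these samples, which may be technical. The 5 P wounds at day 4, the 5 P wounds at day 2 and 3 samples of unwounded skin are used beside them. The title of the series names the clearance of cells that express p21 (the product of Cdkn1a) highly. RNA was read by polyA-selected stranded sequencing, and the values are read counts per gene.

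A skin wound first fills with clotted blood and inflammatory cells, neutrophils early and monocyte-derived macrophages after them. Keratinocytes at its edge then migrate and re-form a stratified epidermis, while fibroblasts lay down new matrix. In the mouse a thin sheet of striated muscle, the panniculus carnosus, lies under the dermal fat, so a full-thickness wound also injures muscle fibres. Injured muscle is rebuilt from satellite cells, whose daughters switch on myogenic regulators, fuse, and for a time make embryonic and neonatal forms of contractile proteins.

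Day 4 libraries held 11807291 to 41315171 counts and day 2 libraries 30153897 to 44560339 counts. The labelled tissue was present in every library: the 13 markers of epidermis and dermis summed to 13500 to 41400 CPM (counts scaled to a common library total) at day 4 and 14500 to 21600 CPM at day 2. The libraries did not separate by day alone. The main axis of variation, with 34% of the variance of log2 CPM, parted replicates 1 and 2 of day 4 and replicates 1, 2 and 3 of day 2 (set 1 below, 5 libraries) from replicates 3 to 6 of day 4 and replicates 4 and 5 of day 2 (set 2, 6 libraries). Day ran along the next axis, with 20.3%. The sets were read from the data and are not labelled. Summed mast cell genes were at 87.8 to 120 CPM in set 1 and 13 to 20.6 CPM in set 2, and summed sebaceous gland genes at 242 to 801 CPM in set 1 and 889 to 1630 CPM in set 2. Summed muscle regeneration genes were higher in set 2 on both days. They were at 198 to 299 CPM in set 1 and 588 to 597 CPM in set 2 at day 2. At day 4 they were at 937 to 994 CPM in set 1 and 1340 to 2120 CPM in set 2. Because day 2 holds 3 of its 5 libraries in set 1 and day 4 holds 2 of its 6, the change between days is also given within each set, as a difference of mean log2 CPM. Calls gained or lost in an edgeR fit of the 11 libraries with a term for the set are named beside the results. That fit called 751 genes higher and 312 lower of 17626 tested, the background for its counts below. The main test used all 36 libraries, so such gains and losses cannot be credited to the term alone. The sets were cut from the same values that the fit tests, so its adjusted p may be too small. What parts the sets was not tested.

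**Figure D1:**
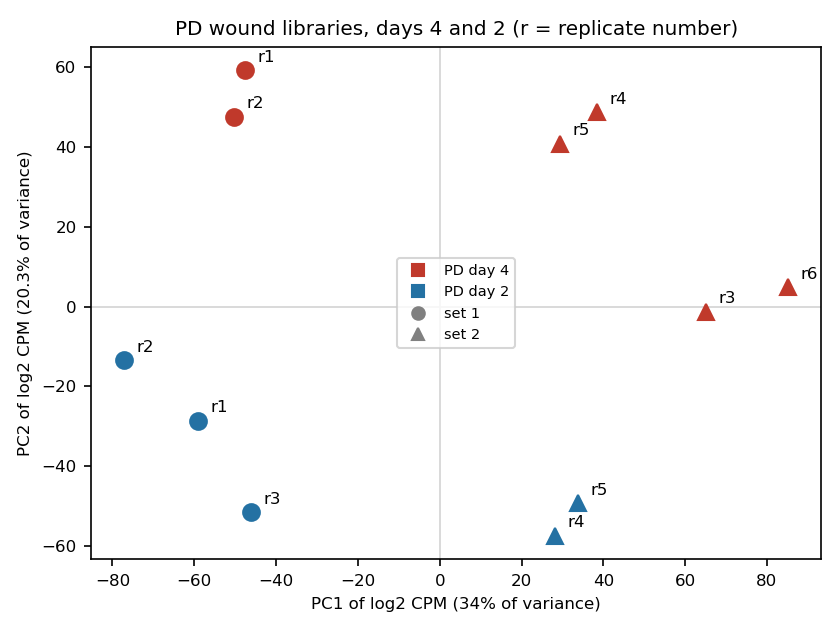
Position of the 11 PD libraries on the 2 main axes of variation of log2 CPM (unitless scores), coloured by day and shaped by set. Set 1 lies between -77.1 and -46.1 on the horizontal axis and set 2 between 28.1 and 85.2, and within each set the day 4 libraries lie above the day 2 libraries.

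Of 20657 genes tested, 551 (2.67%) were higher and 329 (1.59%) lower at day 4 than at day 2 at a Benjamini-Hochberg adjusted p under 0.05 in edgeR's quasi-likelihood test, and such genes are named called. Among them 321 were higher and 193 lower by over 2-fold, and the median log2 change of all tested genes was 0.02. All day 4 levels lay above all day 2 levels for 441 genes (2.13%) and below them for 245 (1.19%). The shares of all genes called, 2.67% higher and 1.59% lower, are the background for each count of list members called below. Of the called genes, 549 of 551 and 325 of 329 kept their sign in both sets. The sets are parts of the same libraries that gave the calls, so this agreement is largely fixed by the calling. It is not separate support for them. The balance of directions depended on scaling. Higher genes were 62.6% of calls with TMM factors, which correct for library composition, and 35.8% (343 higher, 614 lower) without them, where the median of all genes was -0.086 (0.017 with them). The counts also rested on single libraries. They fell to 255 higher and 175 lower without day 4 replicate 4, to 266 and 176 without day 2 replicate 1, to 305 and 176 without day 2 replicate 2, and to 263 and 172 without day 2 replicate 3.

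Genes of newly forming muscle fibres were among the largest increases. Of 14 muscle regeneration genes tested, 5 were higher and none lower, beside 2.67% and 1.59% of all genes, the median log2 change of the list being 0.97 against 0.02 for all genes. Chrng, the embryonic subunit of the muscle acetylcholine receptor, was the sixth called higher when a term for the set was fitted (1.06, adjusted p = 0.0377). The 5 were Myh3 (embryonic myosin heavy chain), Actc1 (the alpha-actin of heart and of immature skeletal muscle), Tnnt2 (cardiac troponin T, also made in immature skeletal muscle), Mymk (myomaker, a membrane protein required for myoblast fusion) and Myh8 (neonatal myosin heavy chain). Their day 4 and day 2 levels did not overlap for any of the 5. In bulk tissue, more or fewer cells of a type cannot be told apart from more or less RNA per cell, here and in every result below.

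Myh3 was at 201 to 536 CPM in the day 4 libraries, with a median of 347 CPM. At day 2 it was at 1.69, 3.06, 3.01, 14.4 and 2.4 CPM in replicates 1 to 5. Every day 4 library was thus far above the highest day 2 library, replicate 4, and unwounded skin held 0.157 to 0.858 CPM. On the log2 scale the change was 6.23 (standard error, SE, 0.73, adjusted p = 2.21e-05 by edgeR), with 6.8 in set 1 and 6 in set 2. Actc1 was at 130 to 255 CPM at day 4 (median 183), against 2.51, 2.34, 4.85, 9.4 and 1.3 CPM at day 2. This made a log2 change of 5.51 (SE 0.68, adjusted p = 3.08e-05 by edgeR). Unlike Myh3, Actc1 was also present in unwounded skin, at 44.9 to 53 CPM, so that its day 2 level was below that of unwounded skin and its day 4 level above it.

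Mymk was at 51.1 to 101 CPM at day 4 (median 85.6), against 2.66, 3.94, 6.42, 15.5 and 9.47 CPM at day 2. Mymk thus changed by 3.36 on the log2 scale (SE 0.57, adjusted p = 0.00125 by edgeR), and unwounded skin held at most 0.262 CPM. Its higher day 2 values were those of set 2, and the change was 3.64 in set 1 and 2.9 in set 2. Tnnt2 was at 83.2 to 226 CPM at day 4 (median 167), against 7.32, 11, 12.8, 26.4 and 23.1 CPM at day 2, a log2 change of 3.29 (SE 0.44, adjusted p = 9.42e-05 by edgeR). Tnnt2 was likewise higher in set 2 at day 2, with a change of 3.16 in set 1 and 2.93 in set 2. Myh8 had a log2 change of 2.66 (adjusted p = 0.00443 by edgeR), with day 4 levels of 157 to 554 CPM and day 2 levels of 24 to 74.6 CPM. These calls did not depend on any single PD library for Myh3, Actc1, Mymk and Tnnt2. In set 2 alone, with 4 against 2 libraries, Mymk and Tnnt2 were still called, while Myh3 and Actc1 were not, though their change there was as large (6 and 5.75).

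The regulators that act earlier in myogenesis were not called. Pax7, the transcription factor of satellite cells, had a log2 change of 0.74 (adjusted p = 0.335 by edgeR). Myod1 and Myog, which commit and differentiate myoblasts, had changes of 0.11 and -0.17 (adjusted p = 0.915 and 0.857 by edgeR). Both were present on either day: Myod1 was at 16 to 52.9 CPM at day 4 and 19 to 41.4 CPM at day 2, and Myog at 39.2 to 163 CPM at day 4 and 40.4 to 161 CPM at day 2. Of 18 genes of adult skeletal muscle none was called, with a median log2 change of 0.22. Their summed level varied widely within each day, from 17800 to 98800 CPM at day 4 and from 20100 to 66800 CPM at day 2, and was highest in day 4 replicates 3 and 6. Myh3 and Actc1 were called in the presence of that spread, and the part of muscle content in their change was not tested. Igfn1, a protein of skeletal muscle outside the list, was at 3.91 to 40.1 CPM at day 4 and 0.542 to 2.08 CPM at day 2 (log2 change 3.64, SE 0.67, adjusted p = 0.0027 by edgeR), and neither set alone gave a call for it.

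The promoters of the most changed pair of muscle genes are shown because both hold the E-box CANNTG, the core letters bound by the MyoD family. They run from 250 bases before to 50 after the RefSeq start of the gene (table of GRCm38.p6, found once each in GRCm39 at chr11:66968876-66969175, plus strand, for Myh3 and chr2:113883307-113883606, minus strand, for Actc1). Capitals mark the E-box, and the pattern CANNTG finds a site on either strand. Counted from the RefSeq start, it begins at -191 in Myh3 and at +9 in Actc1, so that of Actc1 lies after the start.
Myh3: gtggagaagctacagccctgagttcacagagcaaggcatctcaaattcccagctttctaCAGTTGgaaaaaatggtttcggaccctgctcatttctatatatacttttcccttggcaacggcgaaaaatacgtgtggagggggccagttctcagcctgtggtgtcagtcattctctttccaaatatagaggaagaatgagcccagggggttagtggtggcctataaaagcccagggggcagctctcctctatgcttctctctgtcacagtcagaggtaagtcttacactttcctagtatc
Actc1: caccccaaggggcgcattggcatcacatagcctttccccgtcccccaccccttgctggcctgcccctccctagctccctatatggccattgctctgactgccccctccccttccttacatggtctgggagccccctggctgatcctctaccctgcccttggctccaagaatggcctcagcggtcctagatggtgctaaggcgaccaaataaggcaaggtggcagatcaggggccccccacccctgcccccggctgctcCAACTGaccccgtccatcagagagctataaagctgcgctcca
The E-box letters are short and common: 72.3% of the 32851 promoters in the RefSeq table held them, as did 9 of the 11 muscle regeneration genes with an entry. Myh3 lies at chr11:66969126-66993117 (plus strand) and Actc1 at chr2:113876266-113884043 (minus strand) in the GENCODE annotation of GRCm39. The whole Actc1 window thus lies within the GENCODE gene, which begins further upstream than the RefSeq start used.

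Genes of the upper epidermis had positive changes throughout. All 16 genes of keratinocyte differentiation tested had a positive change, with a median of 1.94. Called higher were 3 of them, beside 2.67% of all genes: Casp14, Flg and Krt1. Casp14, the protease that processes filaggrin, was at 55.2 to 262 CPM at day 4 (median 201), against 23, 29.9, 13.2, 10.1 and 10.2 CPM at day 2. Its groups did not overlap, and its log2 change was 3.37 (SE 0.54, adjusted p = 0.000712 by edgeR), 3.39 in set 1 and 3.75 in set 2. Flg (filaggrin, which bundles keratin in the cornified layer) was at 24 to 465 CPM at day 4 (median 140), against 13.3, 33.9, 6.07, 2.5 and 1.04 CPM at day 2. Flg changed by 4.19 on the log2 scale (SE 1.03, adjusted p = 0.0168 by edgeR). Day 4 replicate 3 lay below the highest day 2 library, and without day 2 replicate 3 the call was lost (adjusted p = 0.0552). The 11 libraries alone gave no call either, unless a term for the set was added.

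Krt1, the type II keratin of suprabasal cells, was at 5440 and 4840 CPM in day 4 replicates 1 and 2 and at 424 to 1490 CPM in replicates 3 to 6. At day 2 it was at 310, 794, 280, 204 and 209 CPM. The day 4 libraries of set 1 thus stood far above those of set 2, and the groups overlapped. Krt1 changed by 2.64 on the log2 scale (SE 0.76, adjusted p = 0.0409 by edgeR), 3.64 in set 1 and 1.77 in set 2. Leaving out day 4 replicate 1, 2 or 4 or any day 2 library but replicate 2 ended the call, with adjusted p up to 0.105. So did fitting the 11 libraries alone without a term for the set. The summed level of the 16 genes was 1460 to 18100 CPM at day 4 and 1180 to 3860 CPM at day 2. With a term for the set, 9 of 15 members then tested were higher and none lower, beside 751 and 312 of 17626 genes. Lor (loricrin), Calm4, Krtdap, Kprp, Ivl (involucrin) and Dsc1 (desmocollin 1) joined Casp14, Flg and Krt1.

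Padi1, a deiminase of the epidermis, was at 1.16 to 4.42 CPM at day 4 and 0.0973 to 0.366 CPM at day 2, with a log2 change of 3.82 (SE 0.88, adjusted p = 0.0117 by edgeR). Spink7, a serine protease inhibitor of stratified epithelia, had 341 counts over the 6 day 4 libraries and 1 count over the 5 day 2 libraries (adjusted p = 0.0141 by edgeR), so no fold is given. Of 14 genes of wound-activated keratinocytes 13 had a positive change (median 0.92) but only Stfa3, a stefin and so an inhibitor of cysteine proteases, was called. It was at 112 to 499 CPM at day 4 (median 350), against 119, 124, 80.7, 52.7 and 49 CPM at day 2 (log2 change 1.94, SE 0.56, adjusted p = 0.0407 by edgeR). That call was lost without any PD library other than day 4 replicates 3 and 6, with adjusted p up to 0.111, and reads shared with other stefins make its level uncertain. The keratins of migrating epidermis were not called, with log2 changes of 0.40 for Krt6a (adjusted p = 0.767) and 0.91 for Krt16 (adjusted p = 0.631), both by edgeR. In the fit with a term for the set 5 wound keratinocyte genes were higher, Krt16 among them (1.47, adjusted p = 0.0474), with Stfa3, Klk6, Sprr1b and Sprr2d.

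Of 11 basal keratinocyte genes 1 was lower and none higher, with a median of -0.52. Itgb4, the integrin subunit of hemidesmosomes, was at 106 to 302 CPM at day 4 (median 159), against 390, 298, 222, 321 and 408 CPM at day 2. Its log2 change was -0.90 (SE 0.26, adjusted p = 0.0408 by edgeR), -0.23 in set 1 and -1.44 in set 2. The call held without day 4 replicate 1 or 2 or day 2 replicate 3, and was lost without any other library, with adjusted p up to 0.11. It was also lost in the 11 libraries alone, with or without a term for the set.

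Of 8 sebaceous gland genes 3 were higher, beside 2.67% of all genes. They were Awat1 and Awat2, wax ester synthases of sebum, and Elovl3, a fatty acid elongase. Elovl3 was at 164 to 437 CPM at day 4 (median 266), against 40.2, 46.4, 51.7, 154 and 157 CPM at day 2. Its levels did not overlap, with a log2 change of 1.58 (SE 0.38, adjusted p = 0.015 by edgeR). The lower day 2 values were those of set 1 and the higher ones those of set 2, and the change was 1.92 in set 1 and 0.99 in set 2. Awat1 changed by 1.77 and Awat2 by 1.63 (adjusted p = 0.015 and 0.0264 by edgeR). All 3 calls were lost without day 4 replicate 4 or without day 2 replicate 1, 2 or 3, with adjusted p up to 0.0909. They were also lost in the 11 libraries alone, where adding a term for the set gave 5 of 8 higher. The median of the list was 0.92.

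No hair follicle gene of 17 tested and no melanocyte gene of 7 was called, although 13 and 7 of them had positive changes. Several hair keratins were at or near 0 in most libraries. Krt25 reached 10.8 CPM in day 4 replicate 2 and was at most 0.122 CPM in every other PD library. Pmel, a pigment granule protein, was at 0.292 to 5.18 CPM at day 4 (median 3.36), against 0.466, 0.521, 0.759, 0.366 and 0.389 CPM at day 2. The groups overlapped through day 4 replicate 5 alone, and the change of 2.66 (SE 0.84) was not called (adjusted p = 0.0626 by edgeR, or 0.0452 without that library). Pmel was called in the 11 libraries alone, without a term for the set and with it (2.86, adjusted p = 0.00897 by edgeR). With that term Dct, an enzyme of pigment synthesis, was also called (1.89, adjusted p = 0.00991), of 3 melanocyte genes then tested. Of 10 hair follicle genes then tested, the transcription factors Dlx3 (1.92, adjusted p = 0.00789) and Foxn1 (0.96, adjusted p = 0.0233) were higher. Chga (chromogranin A, a protein of secretory granules) was higher in every day 4 library, at 2.32 to 7.23 CPM against 0.71, 0.684, 0.461, 0.336 and 0.0973 CPM at day 2. Its log2 change was 3.49 (SE 0.44, adjusted p = 3.08e-05 by edgeR), and its call held under every alternative tried, as did those of Mymk, Tnnt2 and Cdkn1c.

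**Figure D2:**
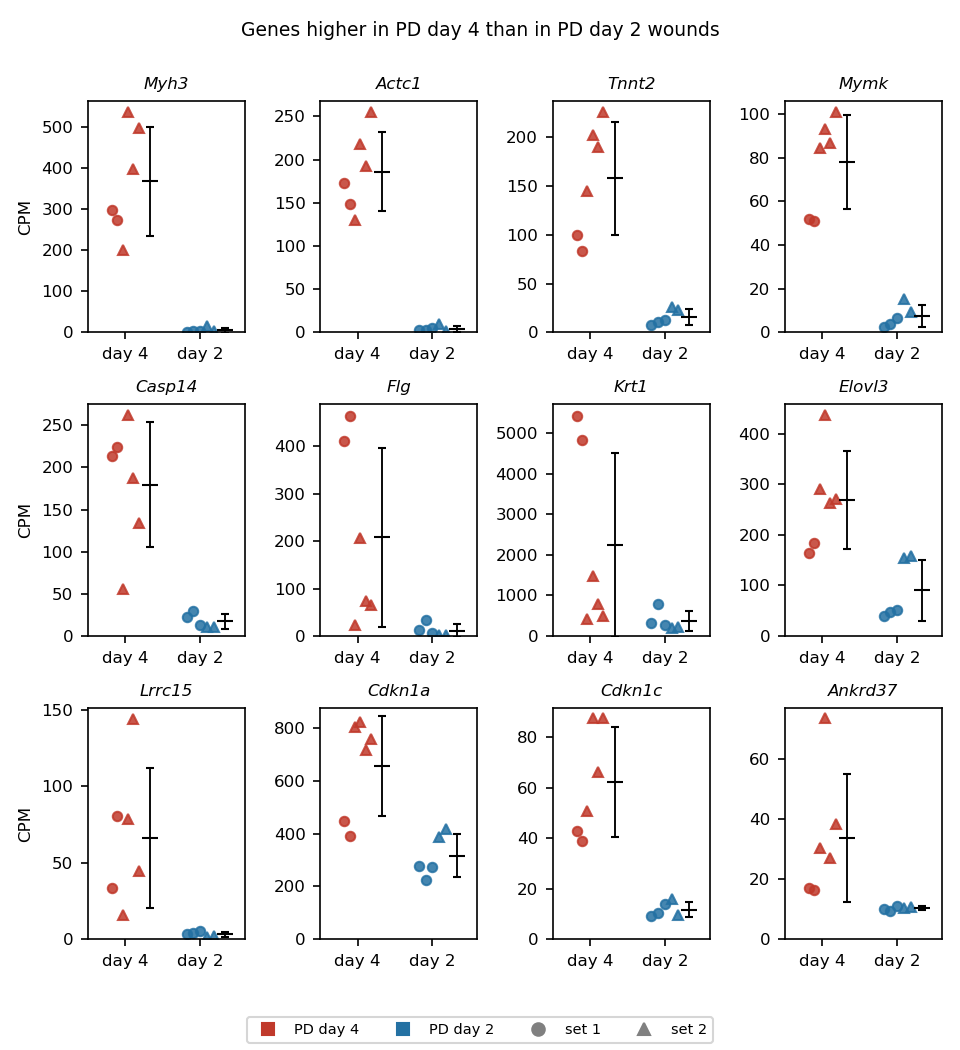
CPM in each PD library for 12 genes called higher at day 4 (linear axes, day 4 left, day 2 right, circles set 1, triangles set 2, black bars mean and SD of 6 and 5 libraries). Myh3, Actc1, Tnnt2, Mymk, Casp14, Elovl3, Lrrc15, Cdkn1c and Ankrd37 do not overlap between days, while Flg, Krt1 and Cdkn1a overlap.

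Matrix genes were mostly not called. Lrrc15, a membrane protein of activated fibroblasts, was at 15.7 to 144 CPM at day 4 (median 61.6), against 3.57, 4.49, 5.64, 1.59 and 2.04 CPM at day 2. Every day 4 library was above every day 2 library and above unwounded skin (1.82 to 2.88 CPM). Lrrc15 changed by 4.25 on the log2 scale (SE 0.57, adjusted p = 9.42e-05 by edgeR), 3.52 in set 1 and 4.83 in set 2. It was the only member called among 11 contractile and myofibroblast genes, whose median was 0.04. Acta2, the smooth muscle actin of myofibroblasts, had a change of 0.46 that was not called (adjusted p = 0.4 by edgeR). Myh11, the myosin of smooth muscle, was lower with a term for the set (-1.08, adjusted p = 0.00461).

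Of 18 matrix collagens none was called, although 14 had positive changes and the median was 0.39. Col1a1, a chain of type I collagen, was at 1050 to 5600 CPM at day 4 (median 3040), against 1530, 2600, 2090, 366 and 499 CPM at day 2. The low day 2 values were those of set 2, and within sets the difference was 1.03 (set 1) and 2.48 (set 2), while the change over all libraries was 1.23 (SE 0.56, adjusted p = 0.219 by edgeR). With a term for the set, Col1a1 and Col1a2 were called (adjusted p = 0.0414 and 0.0419). Summed collagens were at 8770 to 19700 CPM in set 1 and 2150 to 15000 CPM in set 2. No member of the lists of 20 crosslinking and processing enzymes or 18 matrix proteases and inhibitors was called, with medians of 0.22 and 0.20. Under a term for the set P4ha3, a subunit of collagen prolyl hydroxylase, was higher (1.64, adjusted p = 0.0208) and Timp3, an inhibitor of metalloproteases, was lower (-0.85, adjusted p = 0.00372). Timp3 did not overlap between days, at 79 to 128 CPM at day 4 and 160 to 196 CPM at day 2. It was also called in the 11 libraries without the term.

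Of 18 matricellular genes 1 was higher, beside 2.67% of all genes. Ccn4, a Wnt-inducible secreted protein, was at 8.19 to 41.7 CPM at day 4 (median 16.9), against 8.23, 9.44, 5.94, 3.79 and 5.22 CPM at day 2. Ccn4 changed by 1.55 on the log2 scale (SE 0.43, adjusted p = 0.0341 by edgeR), 0.77 in set 1 and 2.01 in set 2. The call was lost in the 11 libraries alone, with or without a term for the set. The call was also lost without day 4 replicate 4 or 5 or without any day 2 library but replicate 2, with adjusted p up to 0.12. Cthrc1, a secreted protein of collagen-producing fibroblasts, and Tnn (tenascin N) had larger changes of 1.76 and 2.15 that were not called (adjusted p = 0.0808 and 0.0973 by edgeR). A term for the set made both of them calls, Cthrc1 at 2.17 (adjusted p = 0.00933) and Tnn at 2.53 (adjusted p = 0.00749). Prss35, of the trypsin-like serine protease family, was at 0.479 to 13.2 CPM at day 4 and 0.13 to 0.391 CPM at day 2 (log2 change 4.35, SE 0.92, adjusted p = 0.00574 by edgeR).

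Genes of the inflammatory infiltrate were not called as a group. Among 18 neutrophil genes, 6 neutrophil-attracting chemokines, 13 inflammatory cytokines, 12 NF-kB feedback genes, 14 monocyte and macrophage genes, 16 genes of alternatively activated or resident macrophages and 12 CC chemokines, none was called in either direction. A term for the set gave calls among them, named below. In the fit of all 36 libraries the share called in these lists was 0 beside a background of 4.26% of all tested genes. Their median changes ran from -0.39 for the CC chemokines to 0.92 for the cytokines. The spread between libraries was wide. Cxcl2, which draws neutrophils, was at 928 to 3680 CPM at day 4 (median 2490), against 780, 647, 1160, 816 and 1190 CPM at day 2, and its change of 1.33 had an SE of 1.31. Summed neutrophil genes were at 3420 to 5250 CPM in set 1 and 5580 to 17000 CPM in set 2. Nfkbia, the inhibitor of NF-kB, was at 226 CPM in both day 4 libraries of set 1 and at 478 to 699 CPM in those of set 2, against 252, 219, 252, 298 and 369 CPM at day 2. Its change was -0.09 in set 1 and 0.87 in set 2, and 0.80 over all libraries (adjusted p = 0.113 by edgeR). Leaving out day 4 replicate 1 or 2 made it a call (adjusted p from 0.0459).

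Several monocyte genes had lower values at day 4 without being called. Fcgr1, a high-affinity Fc receptor, was at 18.5 to 55.1 CPM at day 4 (median 34.7), against 100, 88, 111, 89.2 and 87.7 CPM at day 2. The groups did not overlap, and the log2 change was -1.38 (SE 0.54, adjusted p = 0.147 by edgeR). Chil3, a chitinase-like protein of activated myeloid cells, was at 12.1 to 103 CPM at day 4 (median 23.5), against 171, 219, 210, 113 and 120 CPM at day 2, with a change of -1.84 (SE 0.62, adjusted p = 0.084 by edgeR). Ccl2 and Ccl7, which recruit monocytes, had changes of -1.52 and -1.54 that were not called (adjusted p = 0.1 and 0.0874 by edgeR). Leaving out day 4 replicate 2 made Ccl2 (adjusted p = 0.0443) and Ccl7 (0.0407) calls, and leaving out day 4 replicate 2 or 3 made Chil3 a call (from 0.0463). With a term for the set, 3 monocyte and macrophage genes (Ccr2, Fcgr1 and Ly6c2) were lower, and of the CC chemokines Ccl2, Ccl7 and Ccl12 were lower and Ccl8 higher. In the same fit C1qa and C1qc, complement subunits made by macrophages (0.92 and 0.95, adjusted p = 0.0139 and 0.00858), were higher, and Ppbp, a platelet chemokine, was lower (-2.41, adjusted p = 0.0316). Fabp5, a fatty acid carrier of the macrophage list, was also higher (1.04, adjusted p = 0.0487). It was at 2350 and 1800 CPM in day 4 replicates 1 and 2 and 520 to 1070 CPM in replicates 3 to 6, a layout like that of Krt1. Which cells made Fabp5 was not tested. Il1a was at 45.7 to 161 CPM at day 4 and 28.2 to 35.8 CPM at day 2, with no overlap and no call (log2 change 1.5, adjusted p = 0.119 by edgeR). With a term for the set it was called (1.28, adjusted p = 0.0456). Il1a, Fcgr1 and Ppbp were also called in the 11 libraries without that term.

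Saa2, an acute phase serum amyloid, was lower. It was at 0.0918 to 0.799 CPM at day 4 (median 0.497), against 3.46, 15.3, 4.39, 1.47 and 1.2 CPM at day 2. The groups did not overlap, and the log2 change was -3.38 (SE 0.68, adjusted p = 0.00443 by edgeR), -3.28 in set 1 and -1.76 in set 2, neither set alone giving a call. Reads shared with the other serum amyloid genes make its level less certain. Ms4a4c, a membrane protein of the MS4A family, was at 4.97 to 14.5 CPM at day 4 and 27.1 to 66.9 CPM at day 2 (log2 change -2.40, SE 0.64, adjusted p = 0.0282 by edgeR). Its call was lost without day 4 replicate 3, 4 or 6 or day 2 replicate 1 or 3, with adjusted p up to 0.0766. Of 12 immediate early genes, all with positive changes (median 0.78), only Egr2 was called. This zinc finger factor was at 39.7 to 81.6 CPM at day 4 (median 55), against 27.2, 25.8, 29.2, 38.8 and 43.1 CPM at day 2 (log2 change 0.79, SE 0.23, adjusted p = 0.042 by edgeR). The call was lost without composition factors, without any of day 4 replicates 3 to 6 and without any of day 2 replicates 1 to 3, with adjusted p up to 0.145.

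Interferon-induced genes all had negative changes at day 4, few of them called. The 17 tested had changes with a median of -1.14 that was -1.02 in set 1 and -0.87 in set 2, and 6 were lower without overlap between days, beside 1.19% of all genes. Called lower were 2 of the 17, beside 1.59% of all genes: Cxcl10, a chemokine that attracts T cells, and Mx1, an antiviral GTPase. Cxcl10 was at 4.53 to 15.4 CPM at day 4 (median 8.43), against 53.9, 16.2, 56, 83.7 and 39 CPM at day 2. Its log2 change was -2.48 (SE 0.55, adjusted p = 0.00836 by edgeR), -2.76 in set 1 and -2.47 in set 2 (set 1 alone gave an adjusted p of 0.0536), and its day 4 levels were above the 1.2 to 2.73 CPM of unwounded skin. Mx1 was at 3.48 to 11.7 CPM at day 4 (median 9.9), against 39.1, 21.4, 51, 58 and 30.2 CPM at day 2. The change was -2.20 (SE 0.64, adjusted p = 0.0409 by edgeR), and the call held only when day 4 replicate 2 or day 2 replicate 5 was the library left out, with adjusted p up to 0.1 otherwise.

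The other members had the same sign and were not called. Ifit1, an RNA-binding antiviral protein, was at 10.8 to 16.6 CPM at day 4 (median 15.1), against 35.4, 22.2, 88.2, 69.6 and 42 CPM at day 2. The groups did not overlap and the change was -1.86 (SE 0.62, adjusted p = 0.0797 by edgeR). Its relative Ifit1bl1, outside the list, was at 0.97 to 2.57 CPM at day 4, against 8.79, 4.01, 18.4, 19.5 and 9.96 CPM at day 2. It was called (log2 change -2.87, SE 0.76, adjusted p = 0.0264 by edgeR), but not without day 4 replicate 4 or day 2 replicate 3 or 4, with adjusted p up to 0.0699. Gbp6 and Gbp5, interferon-induced GTPases outside the list, changed by -1.89 and -1.59 (adjusted p = 0.0217 and 0.0359 by edgeR). Gbp6 lost its call without day 2 replicate 1 or 3 (adjusted p up to 0.0682), and Gbp5 without any of day 4 replicates 3 to 6 or day 2 replicates 1 to 3 (up to 0.0992). With a term for the set, 10 of the 17 members were lower and none higher, beside 312 and 751 of 17626 genes. Cxcl10 was at -2.72 (adjusted p = 0.00224) and Ifit1 at -1.87 (adjusted p = 0.00672). Ifit1 was also called in the 11 libraries without that term. No T or cytotoxic lymphocyte gene of 13 was called, and their summed level was 14.1 to 30.9 CPM at day 4 and 10.5 to 29.5 CPM at day 2. Under a term for the set Cd4, the co-receptor of helper T cells (1.55, adjusted p = 0.0138), and Cd5, a T cell surface protein (1.36, adjusted p = 0.0305), were higher.

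Promoters of 3 of these genes are shown with the core of the element bound by the interferon-activated complex ISGF3 in capitals: GAAA, any 2 bases, GAAA. The motif was searched on both strands and on the other strand reads TTTC, any 2 bases, TTTC. The windows lie at chr5:92496699-92496998 (minus strand, Cxcl10), chr19:34618039-34618338 (plus, Ifit1) and chr19:34579319-34579618 (minus, Ifit1bl1) in GRCm39, from the same RefSeq table.
Cxcl10: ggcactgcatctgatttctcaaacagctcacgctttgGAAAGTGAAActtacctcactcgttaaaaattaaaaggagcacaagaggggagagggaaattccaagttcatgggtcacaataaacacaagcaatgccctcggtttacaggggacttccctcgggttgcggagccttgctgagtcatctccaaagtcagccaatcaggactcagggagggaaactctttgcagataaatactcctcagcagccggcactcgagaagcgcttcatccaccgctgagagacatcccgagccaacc
Ifit1: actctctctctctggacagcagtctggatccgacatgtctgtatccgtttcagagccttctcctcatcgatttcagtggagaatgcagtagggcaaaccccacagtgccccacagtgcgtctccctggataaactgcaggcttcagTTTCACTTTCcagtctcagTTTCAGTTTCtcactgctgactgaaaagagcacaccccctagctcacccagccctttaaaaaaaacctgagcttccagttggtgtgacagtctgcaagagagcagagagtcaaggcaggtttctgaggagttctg
Ifit1bl1: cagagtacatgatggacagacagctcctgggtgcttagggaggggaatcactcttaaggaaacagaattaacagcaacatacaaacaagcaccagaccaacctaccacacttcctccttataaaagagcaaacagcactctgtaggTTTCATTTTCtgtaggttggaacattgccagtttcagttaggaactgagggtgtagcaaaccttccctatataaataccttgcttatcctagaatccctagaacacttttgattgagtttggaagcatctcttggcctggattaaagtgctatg
These letters were in 1131 of the 32851 promoters (3.44%) and in 8 of the 12 interferon list members with an entry. A match describes the letters in this window only.

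The growth factor genes called were lower at day 4, though a term for the set also gave higher ones. Of 8 FGF and IGF ligands with Hgf, 3 were lower and none higher, beside 1.59% and 2.67% of all genes, with a median of -0.60. Fgf18 was at 0.939 to 2.67 CPM at day 4 (median 1.6), against 3.91, 4.82, 2.82, 12.7 and 11 CPM at day 2, without overlap. Fgf18 changed by -1.98 on the log2 scale (SE 0.56, adjusted p = 0.0362 by edgeR), and unwounded skin held 43 to 56.1 CPM. Its high day 2 values were those of set 2, and the change was -1.76 in set 1 and -2.48 in set 2. Fgf10, a mesenchymal ligand for keratinocyte FGF receptors, was at 0.927 to 4.23 CPM at day 4 (median 1.68), against 12.1, 13.6, 16, 2.69 and 1.56 CPM at day 2. The high day 2 values were the 3 libraries of set 1. Its change of -2.08 (SE 0.54, adjusted p = 0.0237 by edgeR) was -1.87 in set 1 and -0.61 in set 2. Fgf2, the basic FGF, changed by -0.91 (SE 0.24, adjusted p = 0.0235 by edgeR), -0.95 in set 1 and -0.37 in set 2. Its day 2 levels also divided by set, at 32.4, 27.2 and 19.5 CPM in set 1 and 13.2 and 11.3 CPM in set 2. The 11 libraries alone gave no call for Fgf2, with or without a term for the set, nor for Fgf10 without it. With that term Fgf22, another FGF ligand, was higher (2.99, adjusted p = 0.0135).

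All 3 FGF calls rested on single libraries. Fgf18 kept its call without day 4 replicate 5 or day 2 replicate 1 or 3 and lost it without any other library (adjusted p up to 0.0979). Fgf10 lost it without day 4 replicate 4 or 5 or any of day 2 replicates 1 to 3 (up to 0.0892), and Fgf2 without day 4 replicate 4 or 5 or day 2 replicate 1 or 2 (up to 0.124). Of 8 EGF family genes, Areg (amphiregulin, a ligand of the EGF receptor) was lower and none higher. Areg was at 4.86 to 18.2 CPM at day 4 (median 11.9), against 35.9, 15.3, 56.6, 38.1 and 20.9 CPM at day 2. The groups overlapped only through day 4 replicate 1 and day 2 replicate 2, and the change was -1.55 (SE 0.40, adjusted p = 0.0212 by edgeR). It lost its call without day 4 replicate 5 or day 2 replicate 1 or 3 (up to 0.0942), and in the 11 libraries alone without a term for the set. Ereg (epiregulin, another ligand of the EGF receptor) was higher with a term for the set (1.94, adjusted p = 0.0328). None of 13 TGF-beta and activin genes and none of 15 endothelial genes was called.

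Most adipocyte genes were lower at day 4. Of 14 tested, 12 were lower and none higher, beside 1.59% and 2.67% of all genes, with a median of -2.28, and the exceptions were Scd1 and Car3. Cfd (adipsin, secreted by fat cells) was at 39.9 to 193 CPM at day 4 (median 92.5), against 854, 1630, 1210, 212 and 112 CPM at day 2. Lipe, the hormone-sensitive lipase, was at 32.7 to 86.8 CPM at day 4 (median 42.2), against 251, 409, 248, 66.9 and 40.9 CPM at day 2. For both, the high day 2 libraries were the 3 of set 1, while day 2 replicates 4 and 5 were near or within the day 4 range.

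Cfd changed by -2.94 (SE 0.59, adjusted p = 0.00443 by edgeR), -2.81 in set 1 and -1.21 in set 2. Lipe changed by -2 (SE 0.39, adjusted p = 0.00377 by edgeR), -1.95 in set 1 and -0.49 in set 2. Fabp4, a fatty acid carrier, changed by -2.09 (SE 0.44, adjusted p = 0.00539 by edgeR), -2.22 in set 1 and -0.22 in set 2. The 11 libraries alone gave Fabp4 no call, without a term for the set or with it (-1.19, adjusted p = 0.137 by edgeR). Lipe was not called there without the term. The list median was -2.24 in set 1 and -0.47 in set 2. With a term for the set 6 members were lower and the median was -1.54. Pnpla2, the lipase that starts triglyceride breakdown, was the 1 member without overlap, at 84.3 to 175 CPM at day 4 (median 121), against 294, 490, 344, 187 and 180 CPM at day 2 (log2 change -1.26, SE 0.26, adjusted p = 0.00466 by edgeR). The summed level of the list was 3410 to 5530 CPM at day 4 and 3360 to 12100 CPM at day 2. How far fat content of the biopsies enters these values was not tested.

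Mrap and Rasd1, both outside the list, showed the same layout by set. Mrap, an accessory protein of the ACTH receptor that adipocytes also make, was at 0.412 to 4.12 CPM at day 4 (median 2.09), against 22.8, 49.3, 22.5, 4.43 and 4.18 CPM at day 2 (log2 change -3.23, SE 0.62, adjusted p = 0.00338 by edgeR). Rasd1, a Ras-like protein induced by glucocorticoids, was at 1.56 to 5.68 CPM at day 4 (median 2.69), against 24.8, 43.1, 22.2, 6.32 and 5.8 CPM at day 2 (log2 change -2.64, SE 0.46, adjusted p = 0.00151 by edgeR). Neither overlapped between days. Of 9 Schwann cell genes Sox10, a transcription factor of glia and melanocytes, was lower, at 2.57 to 12.8 CPM at day 4, against 21.1, 12.9, 20.3, 12.9 and 18.5 CPM at day 2. Its change of -1.18 (SE 0.33, adjusted p = 0.0362 by edgeR) was -0.51 in set 1 and -1.74 in set 2. The call was lost in the 11 libraries alone, with or without a term for the set. It was also lost without any of day 4 replicates 4 to 6 or day 2 replicates 1, 3 or 5 (adjusted p up to 0.0996). None of 10 mast cell genes and none of 6 erythroid genes was called. The erythroid median of -1.49 includes Hbb-bs, a beta-globin, at 887 CPM in day 2 replicate 3 and at 49.5 to 84.1 CPM in the other day 2 libraries, and at 10.4 to 90.1 CPM at day 4.

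**Figure D3:**
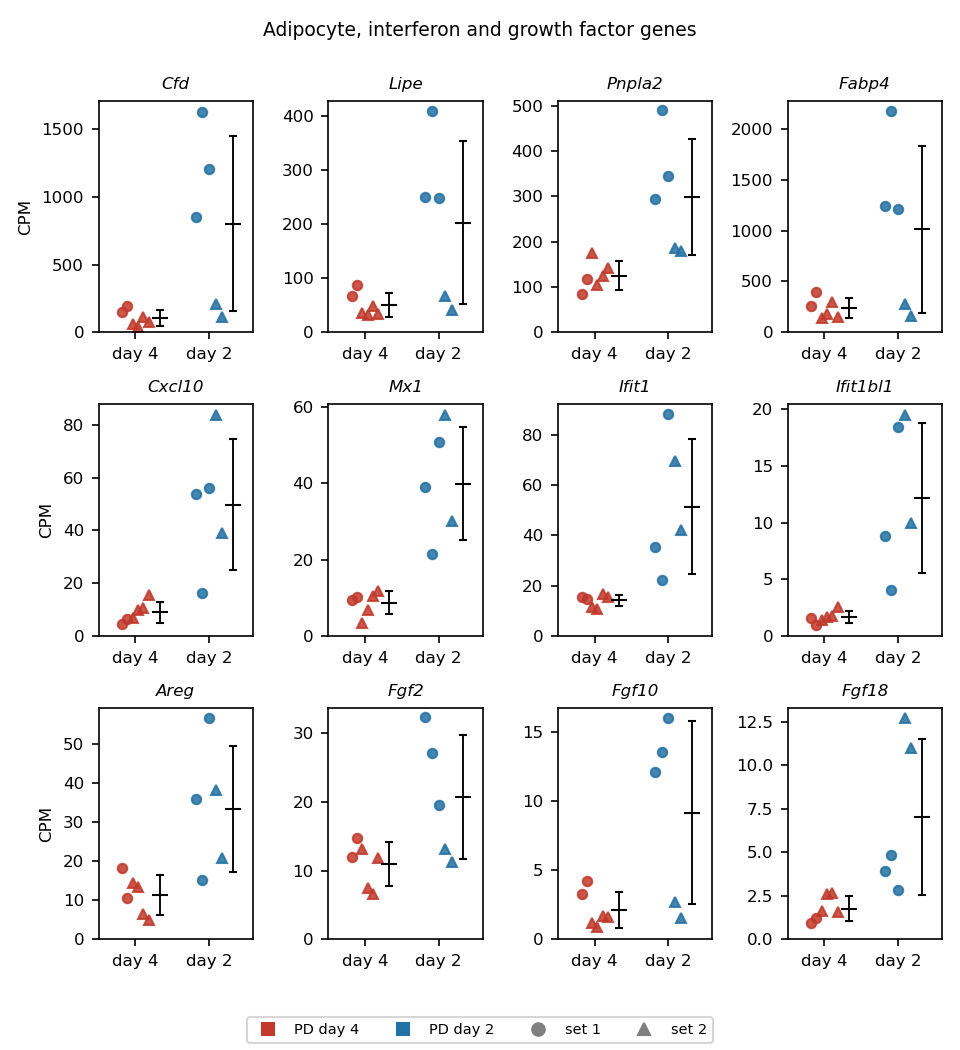
CPM in each PD library for adipocyte (top), interferon-induced (middle) and growth factor genes (bottom), drawn as in the plot of genes called higher, with black bars for mean and SD of 6 and 5 libraries. The day 2 values of the adipocyte genes, Fgf10 and Fgf2 divide by set, with set 1 (circles) high. Those of Fgf18 divide with set 2 (triangles) high, while those of Cxcl10, Mx1, Ifit1, Ifit1bl1 and Areg do not divide by set.

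Among the inhibitors of cyclin-dependent kinases, 2 of 7 were higher and none lower, beside 2.67% and 1.59% of all genes. Cdkn1a, which encodes p21, was at 448, 390, 801, 823, 716 and 756 CPM in day 4 replicates 1 to 6 and at 279, 225, 272, 388 and 416 CPM in day 2 replicates 1 to 5. It averaged 656 ± 188 CPM at day 4 and 316 ± 81.7 CPM at day 2 (SD, n = 6 and 5). Set 2 was higher than set 1 on both days, and the groups overlapped only because day 4 replicate 2 (set 1) lay below day 2 replicate 5 (set 2). Cdkn1a changed by 1.05 on the log2 scale (SE 0.19, adjusted p = 0.00259 by edgeR), 0.70 in set 1 and 0.94 in set 2, and unwounded skin held 194 to 246 CPM. Cdkn1a lies at chr17:29309936-29319701 (plus strand), where exons of Dino, a noncoding RNA on the other strand, overlap it.

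Cdkn1c, which encodes p57, was at 38.9 to 87.6 CPM at day 4 (median 58.6), against 9.28, 10.4, 14.1, 15.8 and 9.5 CPM at day 2. All day 4 libraries were above unwounded skin (21.6 to 35.7 CPM) and all day 2 libraries below it. The log2 change was 2.40 (SE 0.34, adjusted p = 0.000207 by edgeR), 1.87 in set 1 and 2.54 in set 2. Cdkn2a, the locus of p16 and Arf, was at 0.245 to 0.799 CPM at day 4 and 0 to 0.651 CPM at day 2 and was not called (log2 change 1.09, adjusted p = 0.232 by edgeR). Cdkn2b, which encodes p15, was not called either (log2 change 0.48, adjusted p = 0.178 by edgeR).

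Of 16 other p53 target genes only Btg2, an antiproliferative factor, was called. It was at 100 to 316 CPM at day 4 (median 191), against 82.1, 69.4, 98.1, 95.7 and 166 CPM at day 2 (log2 change 0.88, SE 0.26, adjusted p = 0.0466 by edgeR). Its change was 0.29 in set 1 and 0.84 in set 2. The call was lost without composition factors and without any library but day 4 replicates 1 and 2 and day 2 replicate 5 (adjusted p up to 0.138). It was also lost in the 11 libraries alone, with or without a term for the set. With that term the member called was instead Sesn2, a stress-induced inhibitor of mTORC1 (0.50, adjusted p = 0.0329). Sesn2 did not overlap between days, at 43.7 to 73.2 CPM at day 4 and 36 to 41.4 CPM at day 2. In the fit of all 36 libraries it was not called (0.58, adjusted p = 0.0514 by edgeR), and without day 4 replicate 1 or 2 it was (adjusted p = 0.0446 and 0.0278). The 11 libraries alone also gave the call without the term. Of 24 senescence-associated secretory genes 1 was lower (Areg, above) and none higher, with a median of -0.03. A term for the set gave 3 lower (Areg, Ccl2 and Ccl7) and 1 higher (Il1a). The cytokine Il6 (-1.47, adjusted p = 0.181) and the stress cytokine Gdf15 (-0.80, adjusted p = 0.349) were not called by edgeR. Of 18 proliferation genes Birc5 (survivin) was higher, at 42.8 to 74.4 CPM at day 4 and 35.3 to 44.5 CPM at day 2 (log2 change 0.51, SE 0.15, adjusted p = 0.0424 by edgeR). That call was lost without composition factors and without any library but day 4 replicates 2 and 6 (adjusted p up to 0.149), and the list median was 0.08.

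Of 17 glycolysis and hypoxia response genes 2 were higher and none lower, beside 2.67% and 1.59% of all genes, with a median of 0.33. Ankrd37, a target of hypoxia-inducible factor, was at 17.1, 16.3, 30.2, 73.6, 26.9 and 38.4 CPM in day 4 replicates 1 to 6 and at 10, 9.44, 11.2, 10.3 and 10.9 CPM at day 2. The day 2 libraries were within a narrow range, and all day 4 libraries were above it. Ankrd37 changed by 1.70 on the log2 scale (SE 0.33, adjusted p = 0.00338 by edgeR), 0.71 in set 1 and 1.87 in set 2. Exons of Lrp2bp and Ufsp2 overlap it on the other strand. Egln3, the prolyl hydroxylase that marks hypoxia-inducible factor for degradation, changed by 0.75 (SE 0.20, adjusted p = 0.0272 by edgeR). Its call was lost without day 4 replicate 3, 4 or 6 or any of day 2 replicates 1 to 3 (adjusted p up to 0.106). Slc2a1, the glucose transporter GLUT1, did not overlap between days and was not called (log2 change 0.78, adjusted p = 0.0871 by edgeR), but was called with a term for the set (0.68, adjusted p = 0.0112).

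Of 6 heat shock genes Hsph1, a chaperone, was lower, at 60.9 to 79.8 CPM at day 4 and 86.8 to 130 CPM at day 2 (log2 change -0.56, SE 0.14, adjusted p = 0.0151 by edgeR), and not without day 2 replicate 5 (adjusted p = 0.0526). Of 13 circadian clock genes Ciart, a repressor of the clock, was higher, at 11.1 to 17.5 CPM at day 4 and 4.62 to 8.98 CPM at day 2 (log2 change 1.04, SE 0.29, adjusted p = 0.0341 by edgeR). It lost its call without composition factors, without any of day 4 replicates 4 to 6 and without any of day 2 replicates 1 to 3 (adjusted p up to 0.11). None of the respiratory chain (17), mitochondrially encoded (12), Nrf2 and metallothionein (9) or MHC class II and dendritic cell genes (11) was called, though a term for the set gave Nqo1, a quinone reductase of the Nrf2 response, as lower (-0.47, adjusted p = 0.0411).

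**Figure D4:**
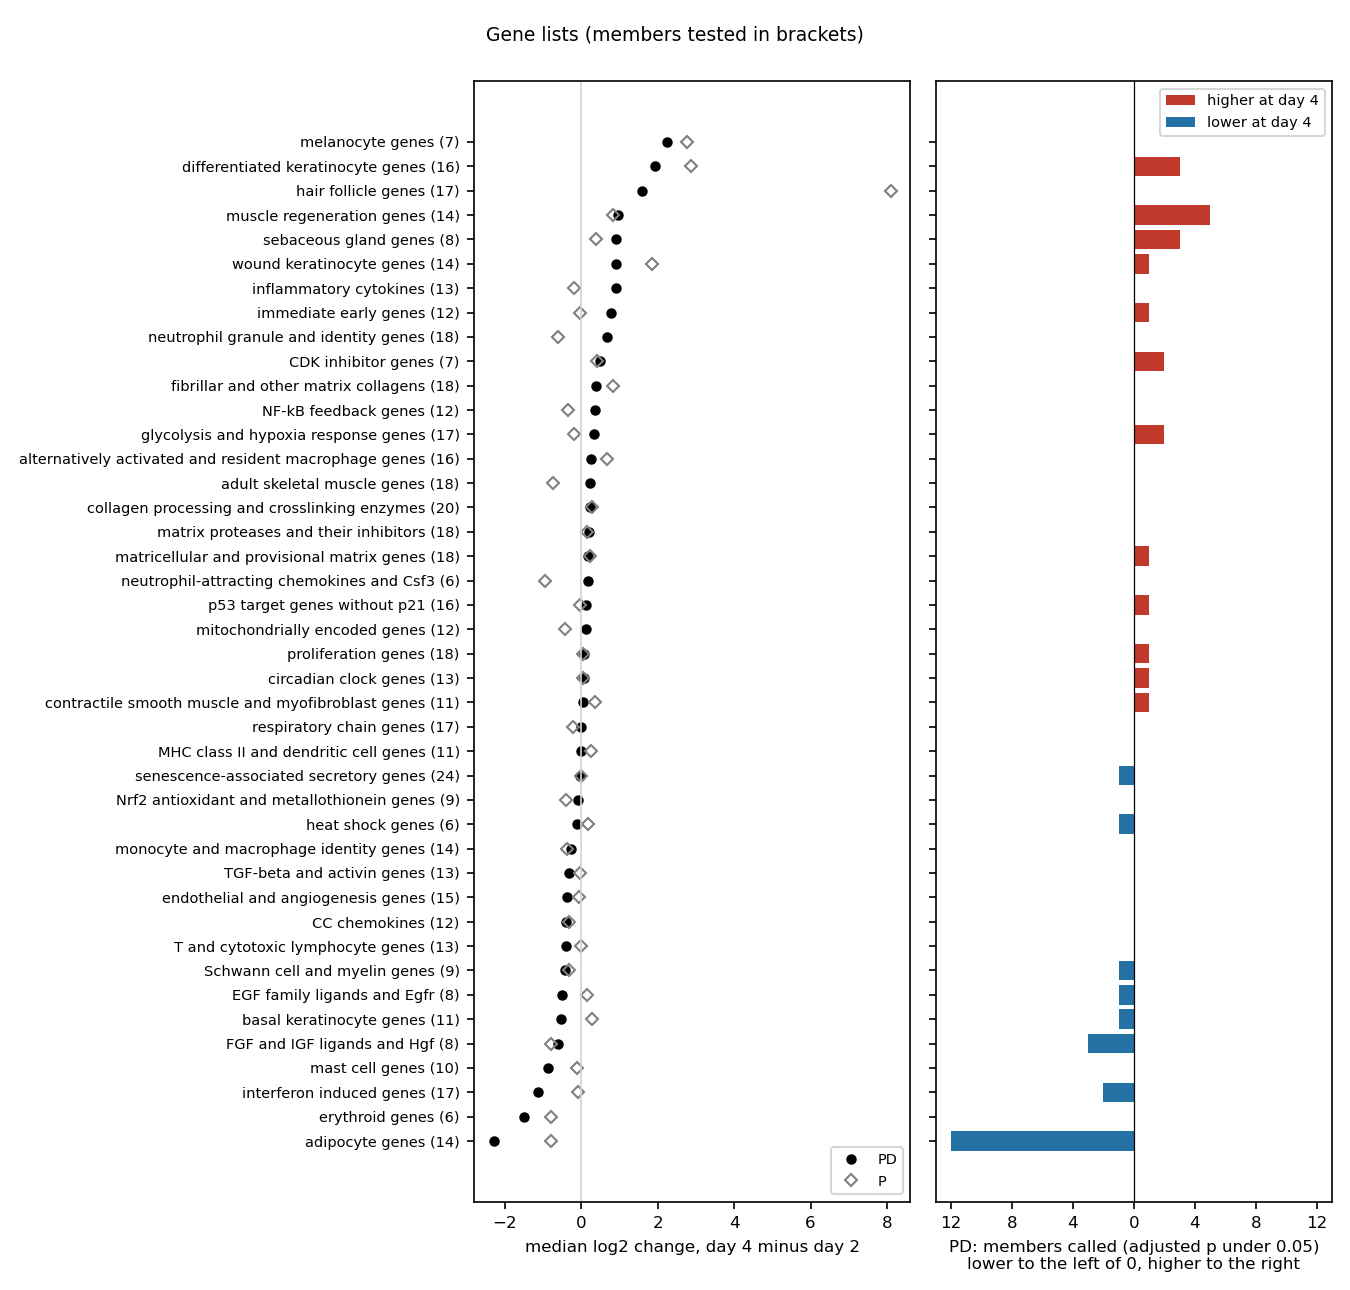
Left, median log2 change (day 4 minus day 2) of each gene list in PD wounds (filled) and P wounds (open diamonds), with the number of members tested in brackets. Right, members called at an adjusted p under 0.05 in PD wounds, higher to the right and lower to the left, with 12 adipocyte genes lower and 5 muscle regeneration genes higher as the longest bars.

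The same days in the P arm, which share no library with the PD comparison, gave 1189 genes higher (5.76%) and 557 lower (2.7%). Of the genes called in PD wounds, 517 of 551 and 301 of 329 had the same sign in P wounds. Called the same way in both arms were 347 genes, 39.4% of the PD calls and 19.9% of the P calls. Across all tested genes the log2 changes of the arms had a Pearson r of 0.427, a description over genes, which are not independent replicates. No gene was called for a difference between the arms in their change (edgeR, 1472 genes at an unadjusted p under 0.05, smallest adjusted p = 0.633), whereas DESeq2 called 78 and limma-voom with sample weights 2826.

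Among muscle regeneration genes Myh3 changed by 6.23 in PD and 5.86 in P, and Actc1 by 5.51 in PD and 4.99 in P, and 5 members were higher in each arm. Casp14 (3.37 in PD, 3.51 in P), Lrrc15 (4.25 in PD, 3.80 in P) and Cdkn1c (2.40 in PD, 1.97 in P) were likewise called in both arms. The interferon list had a median of -1.14 in PD and -0.09 in P, with no member called in P. The adipocyte list had 12 members lower in PD and 1 in P (medians -2.28 and -0.78). Hair follicle genes had none of 17 called in PD and 16 higher in P, with medians of 1.58 and 8.09, many members being near 0 in PD wounds.

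Cdkn1a changed by 1.05 in PD and was not called in P (0.41, SE 0.20, adjusted p = 0.207 by edgeR), where it averaged 495 CPM at day 4 and 372 CPM at day 2. The difference between the arms was 0.64 (SE 0.27, unadjusted p = 0.0253 and adjusted p = 0.683 by edgeR). Ankrd37 changed by 1.70 in PD and was at -0.01 in P, with an unadjusted p of 0.000857 for the difference that did not pass adjustment by edgeR. No member of these lists and none of these genes was called by edgeR for a difference between the arms. The lists were not tested as wholes.

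**Figure D5:**
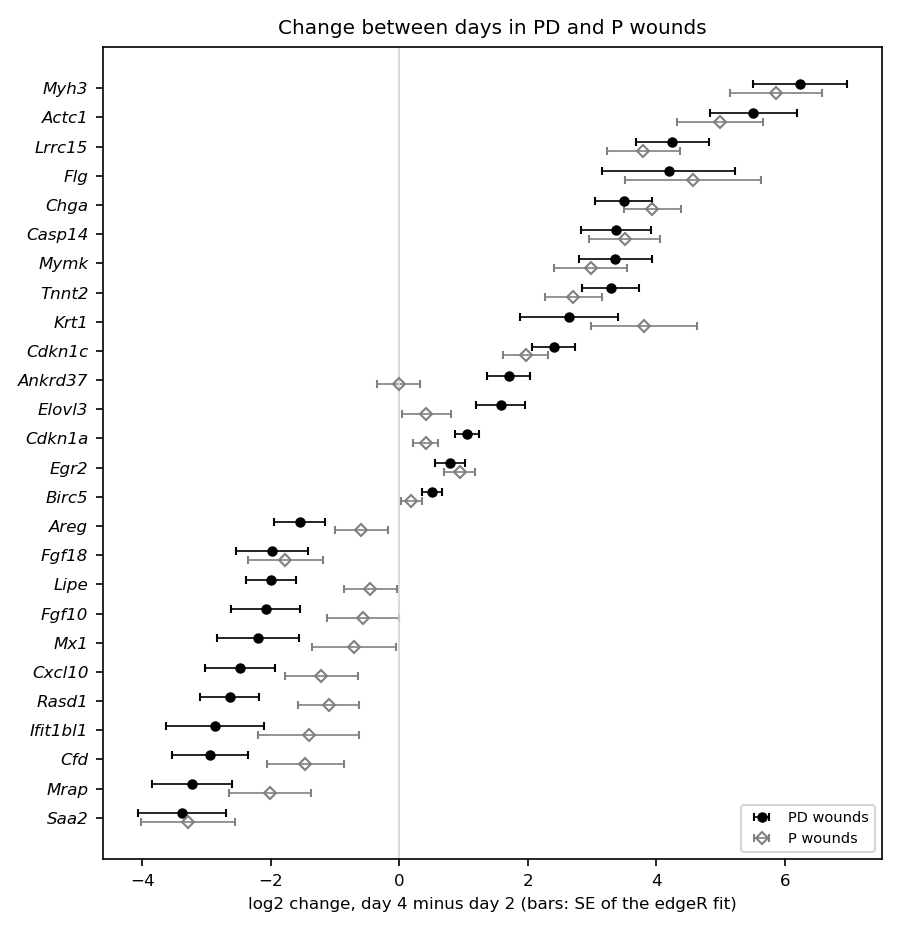
Log2 change (day 4 minus day 2) with its SE from the edgeR fit, for 26 genes in PD wounds (filled) and P wounds (open). Myh3, Actc1, Lrrc15, Chga, Casp14 and Saa2 lie close together in the arms, while Ankrd37 is at 1.70 in PD and -0.01 in P.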

How the data were processed

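RNA was sequenced from PD wounds at day 4 (6 libraries) and day 2 (5). Wounds were snap frozen and RNA extracted with TRIzol for TruSeq Stranded mRNA libraries, per the labels' protocols. The authors deposited raw whole-number read counts per gene. The submitters' processing notes name Trimmomatic, HISAT2 2.1.0, SAMtools 1.9, HTSeq and the build GRCm39. The strand setting and annotation release of the counting are not given in the sources used here. Exons of 33 of the 79 genes followed overlap a gene on the other strand, and their values are less certain. Coordinates are from GENCODE vM39, which held 54749 of 55414 identifiers (98.8%), and promoters from RefSeq.

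Scaling was by TMM, and the test was edgeR 4.0.16 (robust quasi-likelihood) in R 4.3.3, with 7 group means over all 36 libraries. filterByExpr (minimum count 10, minimum total 15) kept 20657 genes, and calls were made at an adjusted p (Benjamini-Hochberg) under 0.05. SE was the log2 change divided by the square root of F. Totals of 11807291 to 44560339 counts per library set the precision, and low counts are the least precise. No 2 libraries of a group agreed within sampling noise (smallest chi-square per degree of freedom 39.86). The code was tested on simulated data.

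The comparison and the 43 gene lists were chosen with earlier results of these data known. Named were Cdkn1a, the 12 called genes of largest rise and of largest fall without overlap whose mean reached 1 CPM, and as many as 4 members per list by adjusted p. Not all are described. Other list members named, and the 79 genes followed through every alternative, were chosen after their values were seen. Alternatives were other scalings, filters and tests (DESeq2 1.42.0, limma 3.58.1), the replicate block, 2 surrogate variables (sva 3.50.0), fewer libraries, and, added after seeing the data, a term for the 2 library sets and either set alone.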

Additional observations from a re-analysis of the deposited data

Results flagged for a closer look

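Among 158 groups of values (the genes followed, at day 4 or day 2), 14 (8.86%) held a highest or lowest library that stood apart from the others of its group by more than Dixon's 95% limit. Chance gives about 1 in 20 for independent, normally distributed values. These were CPM on a linear scale, of genes chosen partly after their values were seen. The 8.86% therefore cannot be read as an excess of outliers. At day 4 the high values were Prss35 at 13.2 CPM, Ppbp at 9.43 CPM and Gpnmb at 159 CPM, all in replicate 5, Ccl2 at 52.7 CPM in replicate 2 and Pfkp at 396 CPM in replicate 4, and the low value was Cd5 at 0.959 CPM in replicate 3. At day 2 the high values were Spink7 at 0.0326 CPM (its single count at that day), Saa2 at 15.3 CPM, Krt1 at 794 CPM and Krt10 at 778 CPM, all in replicate 2. The others were Myh3 at 14.4 CPM in replicate 4, Hbb-bs at 887 CPM in replicate 3 and Pfkp at 167 CPM in replicate 5, and the low value was Birc5 at 35.3 CPM in replicate 1.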

How the results depend on the processing

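Numbers of genes called (main 551 higher, 329 lower) moved by over 1.5 times in at least 1 direction with no composition factor (343 higher, 614 lower), the DESeq2 Wald test (1139 and 508), limma-voom (2181 and 1937) and no filter (320 and 207). They also did so with the 11 libraries alone (270 and 111), the replicate block (302 and 104), 2 surrogate variables (1596 and 1114) and set 2 alone (47 and 45). With 1 library left out they ran from 255 to 692 higher and from 172 to 449 lower. The difference between the arms had 0 calls in edgeR in every setting in which it was fitted, 78 in DESeq2 and 2826 in limma-voom. The cause was not tested. Same-numbered libraries of the days did not pair: their deviations correlated at 0.34, 0.46, -0.16, 0.17 and 0.046. With the replicate number as a block 302 genes were higher and 104 lower. Of the 880 main calls this block kept 260 (29.5%), and the 11 libraries alone kept 296 (33.6%). Calls lost in the 11 libraries alone included Flg, Krt1, Egr2, Areg, Fgf2, Fgf10, Awat1, Awat2, Elovl3, Lipe, Fabp4, Egln3 and Birc5. The block ended those of Igfn1, Cfd, Ankrd37, Gbp6, Hsph1, Krt1, Fgf10, Lipe, Fabp4 and Egln3, among others. Of single genes followed, the sign reversed only for Nfkbia, at -0.07 in set 1 alone. With 1 library left out 685 gene and setting pairs kept their side of the threshold, 150 lost a call and 34 gained one. In the other settings 718 kept it, 118 lost it and 109 gained it. Depth was lowest in day 4 replicate 6, which limits genes of few counts, and set 2 alone holds 4 against 2 libraries.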
